A study of Mus musculus with 6 samples.

Results

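A set of 10 genes of the cytosolic heat shock response was followed in the hippocampus of saline-treated and methamphetamine (MA)-treated mice. They are the inducible HSP70 copies Hspa1a and Hspa1b, the constitutive HSP70 gene Hspa8, the J-protein genes Dnajb1 and Dnajb5, the HSP70 exchange factor genes Hsph1 and Bag3, the inducible HSP90 gene Hsp90aa1, the small heat shock protein gene Hspb1 and the transcription factor gene Hsf1. They were taken by gene symbol, which found 10 of 16060 rows of the expression table, and all 10 were among the 13321 rows that passed the filter on low values. The study sequenced RNA of the hippocampus from 3 mice labelled Control and 3 labelled MA, with 1 library per mouse. All were adult male C57BL/6 mice according to the labels and the methods of the study. Control mice received normal saline intraperitoneally. MA mice were injected for 3 weeks, and the dose was 5 mg/kg in week 1, 10 mg/kg in week 2 and 15 mg/kg in week 3. Both groups went through behavioral tests on day 22 and were killed directly afterwards, so that every library follows handling and testing, and the time from the last MA dose is not given in the sources used here. The groups are those of the labels. No gene in the table checks them. The study lists the activity genes Fos, Arc, Egr1, Junb and Nr4a1, and also Hspb1, as upregulated between control and MA-treated mice. Its qPCR on 3 samples per group also found Fos, Egr1, Arc and Nr4a1 raised by MA. In the labelled columns, all of these genes had a lower mean in MA. The heading of the study's gene list names Control before MA-treated mice. Whether the group names of the columns were exchanged, or the list was signed as Control over MA, cannot be told from these files. If the group names were exchanged, every sign below would turn, while the sizes of log2 differences and the p-values would stay. Percent differences in mean RPKM are taken relative to Control and would also change in size.

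Cells make heat shock proteins when proteins unfold. The factor HSF1 is held inactive by the chaperones HSP90 and HSP70, and when unfolded proteins draw these away it forms trimers and binds heat shock elements, inverted repeats of the letters GAA, in the promoters of chaperone genes. HSP70 then binds exposed stretches of its clients with help from J-proteins, which deliver the client and stimulate ATP hydrolysis, and from exchange factors, which release ADP. In the brain, neurons hold large amounts of the constitutive HSP70 protein, whereas the inducible forms are low at rest and rise with heat, ischemia, seizures and proteotoxic stress.

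To show the element through which HSF1 acts, the start regions of the genes were read from RefSeq sequences of GRCm38.p6, which cover 250 bases before to 50 bases after each annotated start. Entries were matched by symbol for 7 of the 10 genes, with 11 start windows in all, and no entry was matched for Hspa8, Hsp90aa1 and Hsf1. A pair of inverted units was searched as GAANNTTC or TTCNNGAA, and a run of 3 units as GAANNTTCNNGAA or TTCNNGAANNTTC. Each pair reads the same on both strands, the 2 runs are each other's reverse complement, and a run contains pairs. A pair was present in 5 of the 7 genes (Hspa1a, Hspa1b, Hspb1, Hsph1 and Bag3) and a run of 3 in Hsph1. Among all 27025 genes with an entry, 17.0% held a pair and 0.662% a run of 3. A match is a description of letters and not a measured binding site. The 250 bases before the start of Hspa1a (chr17:34972157-34972406, minus strand), Hspa1b (chr17:34959239-34959488, minus strand) and Hspb1 (chr5:135887669-135887918, plus strand) are shown first because these genes had the lowest log2 fold changes, with the pairs in capitals:
Hspa1a: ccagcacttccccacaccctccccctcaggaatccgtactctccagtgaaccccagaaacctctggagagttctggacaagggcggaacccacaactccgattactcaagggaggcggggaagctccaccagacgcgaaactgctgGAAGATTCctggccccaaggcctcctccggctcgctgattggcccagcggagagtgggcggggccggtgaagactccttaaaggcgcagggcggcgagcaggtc
Hspa1b: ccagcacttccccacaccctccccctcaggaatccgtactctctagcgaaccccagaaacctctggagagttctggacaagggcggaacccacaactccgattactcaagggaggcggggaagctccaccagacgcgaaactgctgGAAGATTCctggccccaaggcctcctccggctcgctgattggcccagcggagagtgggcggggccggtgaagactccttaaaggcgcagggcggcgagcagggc
Hspb1: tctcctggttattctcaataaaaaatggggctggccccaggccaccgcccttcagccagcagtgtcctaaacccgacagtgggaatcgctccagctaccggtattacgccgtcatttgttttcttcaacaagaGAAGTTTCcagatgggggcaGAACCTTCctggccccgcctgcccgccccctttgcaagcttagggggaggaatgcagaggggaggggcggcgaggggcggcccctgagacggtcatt
The first 2 of these sequences are identical at 247 of 250 bases, and both hold GAAGATTC at position -104 from the start. Hspb1 holds GAAGTTTC at -117 and GAACCTTC at -97. Shorter stretches are shown for Hsph1 (chr5:149636352-149636380 and chr5:149636280-149636308, minus strand) and Bag3 (chr7:128523604-128523632, plus strand), whose matches lie close to or after an annotated start:
Hsph1, pair: gggtagaatctTTCTCGAAggctcgagaa
Hsph1, run of 3: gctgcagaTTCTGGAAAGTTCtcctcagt
Bag3, pair: caagttctctggatgggaccaGAAGTTTC
No match was found in the 2 windows of Dnajb1 and the 3 windows of Dnajb5.

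All 10 genes had a lower mean in the libraries labelled MA, as did 7025 of the 13321 tested genes. This direction holds only if those labels do. On the deposited log2 scale, the differences ran from -1.27 for Hspb1 to -0.042 for Hsp90aa1, with a median of -0.49, against a median of -0.010 over all tested genes. Hspb1, Hspa1a, Hspa1b, Dnajb1 and Dnajb5 were 36.4% to 59.5% lower in mean RPKM, Hsph1 and Hspa8 were 22.2% and 17.5% lower, and Hsp90aa1 was 1.89% lower. Every library labelled MA lay below every library labelled Control for 8 of the 10 genes, whereas 10.2% of all tested genes had this order. An unadjusted p under 0.05 (limma) with the lower mean in MA was reached by 7 of the 10, and by 5.46% of all tested genes (10.4% in either direction). The 10 genes were chosen with earlier results of these data known, so these shares describe them and do not test the set. None of the 10 passed an adjusted p under 0.05 in limma over the 13321 genes, a threshold passed by 0.263% of them in either direction and by 0.0976% with a lower value in MA. With limma's sample quality weights, 4 of the 10 passed it, as did 4.40% of all tested genes.

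The values are the deposited ones, a log scale of RPKM (reads normalized to gene length and library size) read here as log2 of RPKM plus 1, so that differences of low genes are understated and levels of different genes may be compared per length. Log2 fold changes are given as MA minus Control, between group means. The table gives no read totals, so the depth is unknown. All 6 libraries end at one and the same maximum, so they were normalized to each other before deposit. The mean correlation with the other libraries of the group, across tested genes, was 0.991 to 0.993 in Control and 0.978 to 0.985 in MA, lowest for MA replicate 3. The 3 against 3 design gives no exact two-sided permutation p under 0.1, and 8 of the 10 genes had that smallest value. Nothing in the labels names a batch. In bulk tissue, fewer cells of a type and less RNA per cell cannot be told apart.

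**Figure D1:**
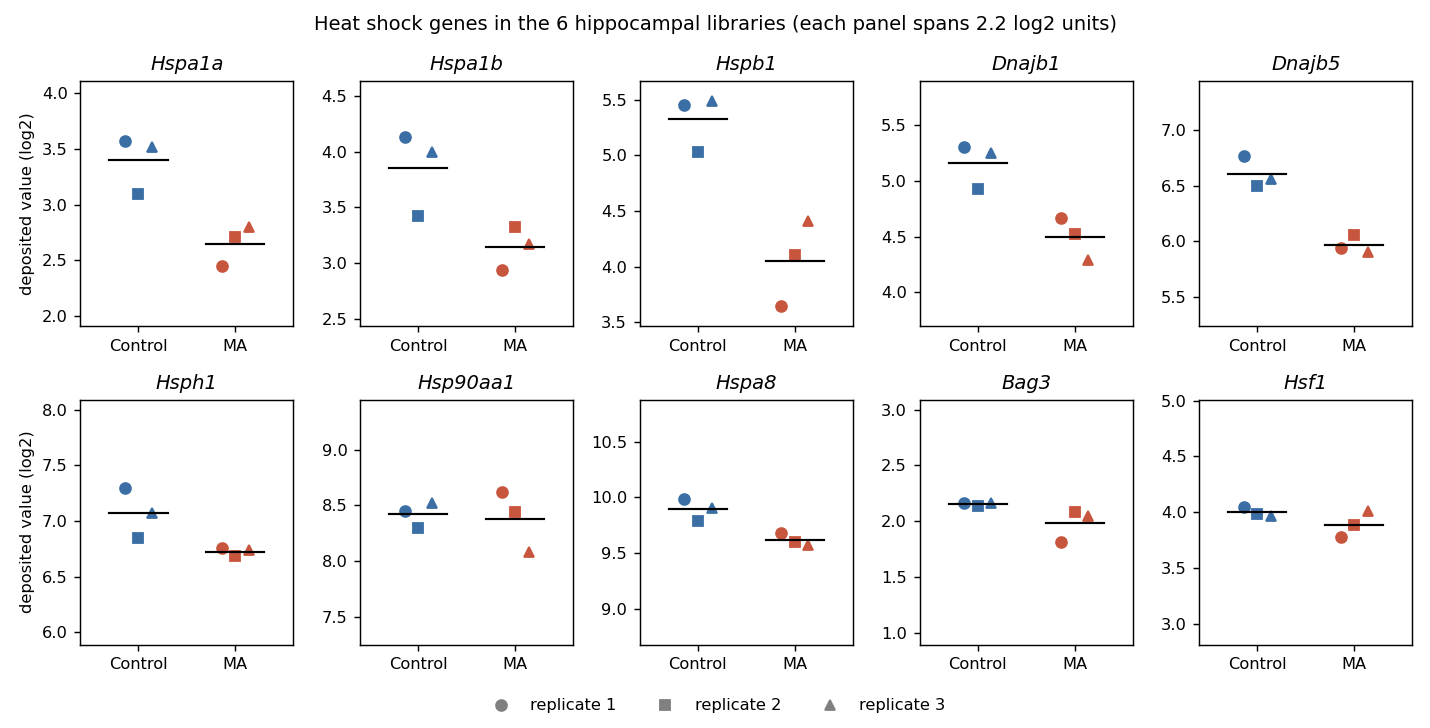
Deposited log2 value (y axis) of each heat shock gene in the 3 Control and 3 MA libraries, with the marker shape giving the replicate number and the black line the group mean; every panel spans the same number of log2 units. The groups are apart in 8 panels, and overlap for Hsp90aa1 and Hsf1.

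Hsf1 encodes the factor that switches the family on. The gene (ENSMUSG00000022556) lies on chromosome 15 of GRCm38 from 76477422 to 76501913. It stood at 4.05, 3.98 and 3.97 in Control replicates 1, 2 and 3 and at 3.77, 3.89 and 4.01 in MA replicates 1, 2 and 3. MA replicate 3 lay above 2 of the Control libraries, so the groups overlapped. The log2 fold change was -0.11 with a 95% interval from -0.33 to 0.11 (limma adjusted p = 0.738), an interval that holds both no difference and a modest lowering of the message. HSF1 activity is set mainly at the protein, which these libraries do not measure.

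Hspa1a and Hspa1b encode nearly the same inducible HSP70 protein, which refolds or hands over damaged clients. They lie side by side on chromosome 17 of GRCm38, Hspa1b from 34956436 to 34959238 and Hspa1a from 34969190 to 34972156, and each is a single exon. Hspa1a stood at 3.57, 3.10 and 3.52 in Control replicates 1 to 3 and at 2.45, 2.71 and 2.80 in MA replicates 1 to 3. All MA values were below the lowest Control value, that of replicate 2, by at least 0.30. In RPKM this is 9.64 ± 1.82 against 5.31 ± 0.77 (SD, n = 3 each). Its log2 fold change was -0.75 (SE 0.16, limma adjusted p = 0.179). Hspa1b stood at 4.13, 3.43 and 3.99 in Control and at 2.94, 3.32 and 3.17 in MA. Here the gap between the groups was narrower, at 0.10, because Control replicate 2 lay close to the MA libraries. For Hspa1b the log2 fold change was -0.71 (SE 0.20, limma adjusted p = 0.287). Reads can be split between these copies, since 47.1% of the 100-base windows of Hspa1a transcripts also occur in Hspa1b, so neither value is that of 1 copy with certainty. A gene on the other strand, Gm20481, covers 19.0% of the exonic bases of Hspa1a, and whether counting used strand is not given in the sources used here.

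Hspa8 encodes the constitutive HSP70, Hsc70, which folds new proteins and strips clathrin from vesicles at synapses. It lies on chromosome 9 of GRCm38 from 40800984 to 40810087. It was the most abundant of the 10 per length, with a mean over the 6 libraries above that of 99.5% of tested genes. Its values were 9.98, 9.79 and 9.91 in Control and 9.68, 9.60 and 9.58 in MA. The groups did not overlap, with 0.11 between the nearest libraries. With MA the log2 fold change was -0.28 (SE 0.078, limma adjusted p = 0.292). In RPKM the means were 951 ± 63.5 in Control and 785 ± 28.6 in MA (SD, n = 3 each), so the difference of this gene was the largest of the 10 in RPKM while its fold was among the smaller ones. Processed pseudogene copies share 28.2% of its 100-base windows.

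The inducible and constitutive genes were also compared within each library. Such a difference cancels a common scaling of a library, but not a normalization that assigns values by rank. The deposited values appear to be of the second kind, since identical ones recurred across libraries. An example is 9.98182, for Hspa8 in Control replicate 1 and Hba-a1 in MA replicate 1. Hspa1a lay below Hspa8 by a log2 difference of -6.50 ± 0.17 in Control and -6.97 ± 0.23 in MA (SD, n = 3 each). The distance was wider in every MA library, by -0.47 in the mean (exact permutation test, two-sided, p = 0.1, the smallest p possible, or 0.3 after adjustment over the 3 ratios compared). For Hspa1b against Hspa8 the difference was -0.43, and the groups overlapped through Control replicate 2 (exact permutation p = 0.2, adjusted 0.3). Hsp90aa1 against its constitutive relative Hsp90ab1 went the other way, from -1.13 ± 0.065 in Control to -1.03 ± 0.10 in MA (SD, n = 3 each). That difference of 0.10 was about the spread between the MA libraries (exact permutation p = 0.3, adjusted 0.3). Whether the inducible HSP70 genes differed by more than Hspa8 cannot be settled at 3 against 3.

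J-proteins bring clients to HSP70. Dnajb1, the classical heat-inducible partner Hsp40, lies on chromosome 8 of GRCm38 from 83608193 to 83612653. It stood at 5.30, 4.92 and 5.25 in Control and at 4.66, 4.52 and 4.29 in MA. Each MA library was lower than each Control library, by 0.26 at the closest. Dnajb1 had a log2 fold change of -0.67 (SE 0.14, limma adjusted p = 0.164). Dnajb5, a close relative of Dnajb1, lies on chromosome 4 of GRCm38 from 42949814 to 42959425. Its values of 6.77, 6.50 and 6.56 in Control and 5.94, 6.06 and 5.91 in MA left a gap of 0.44. It was a tight difference within both groups, and by unadjusted p it held rank 45 among the 13321 genes, ahead of the other 9 heat shock genes. Dnajb5 had a log2 fold change of -0.64 (SE 0.096, limma adjusted p = 0.0628). No 100-base window of Dnajb1 or Dnajb5 transcripts occurs in another gene's annotated transcripts.

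Exchange factors reset HSP70 after each round of folding. Hsph1 encodes Hsp110 (Hsp105), a large HSP70 relative that works as an exchange factor and dissolves aggregates with HSP70 and J-proteins, and lies on chromosome 5 of GRCm38 from 149614287 to 149636376. It stood at 7.30, 6.85 and 7.08 in Control and at 6.76, 6.68 and 6.74 in MA. The MA libraries were nearly level while the Control libraries spread over a wider range, and 0.090 separated the nearest of them. The log2 fold change was -0.35 (SE 0.12, limma adjusted p = 0.370). It did not reach an unadjusted p of 0.05 when Control replicate 1, Control replicate 3 or MA replicate 2 was left out, with a log2 fold change of -0.24 without Control replicate 1. Bag3 encodes a co-chaperone that steers HSP70 clients to autophagy, and lies on chromosome 7 of GRCm38 from 128523616 to 128546981. It was the least abundant of the 10, at 2.17, 2.14 and 2.16 in Control and 1.82, 2.08 and 2.05 in MA. The groups did not overlap, but most of the difference came from MA replicate 1. The log2 fold change of -0.17 (SE 0.11, limma adjusted p = 0.643) shrank to -0.092 without that library.

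Hsp90aa1 encodes the inducible HSP90, which stabilizes kinases and receptors and restrains HSF1. It lies on chromosome 12 of GRCm38 from 110690605 to 110702728. It stood at 8.44, 8.30 and 8.52 in Control and at 8.62, 8.44 and 8.08 in MA. MA replicate 1 was the highest and MA replicate 3 the lowest of the 6 libraries. The log2 fold change was -0.042 with a 95% interval from -0.38 to 0.29 (limma adjusted p = 0.947), and it turned to 0.11 without MA replicate 3 and to 0.067 with sample quality weights. Pseudogene copies share 38.0% of its 100-base windows.

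Hspb1 encodes the small heat shock protein Hsp25, which holds unfolding proteins and stabilizes actin. In the brain it is best known from blood vessels and reactive astrocytes and from stressed neurons. It lies on chromosome 5 of GRCm38 from 135887919 to 135889563. It stood at 5.46, 5.03 and 5.48 in Control and at 3.65, 4.11 and 4.41 in MA. The gap of 0.62 was the widest of the 10 genes. In RPKM the means were 39.5 ± 6.72 and 16.0 ± 4.35 (SD, n = 3 each). The log2 fold change was -1.27 (SE 0.21, limma adjusted p = 0.0785), lower than that of all but 0.0976% of the tested genes. The pseudogene Hsp25-ps1 shares 44.0% of its 100-base windows, so reads could be split between the copies. The 6 endothelial markers (Cldn5, Flt1, Pecam1, Ly6c1, Slco1a4 and Itm2a) all had a higher mean in MA, with a summed RPKM of 168 to 190 in Control and 181 to 231 in MA. The 5 astrocyte markers had lower means in MA, from -0.36 for Aqp4 to -0.00012 for Slc1a3. Their sums were 309 to 336 in Control and 246 to 349 in MA.

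**Figure D2:**
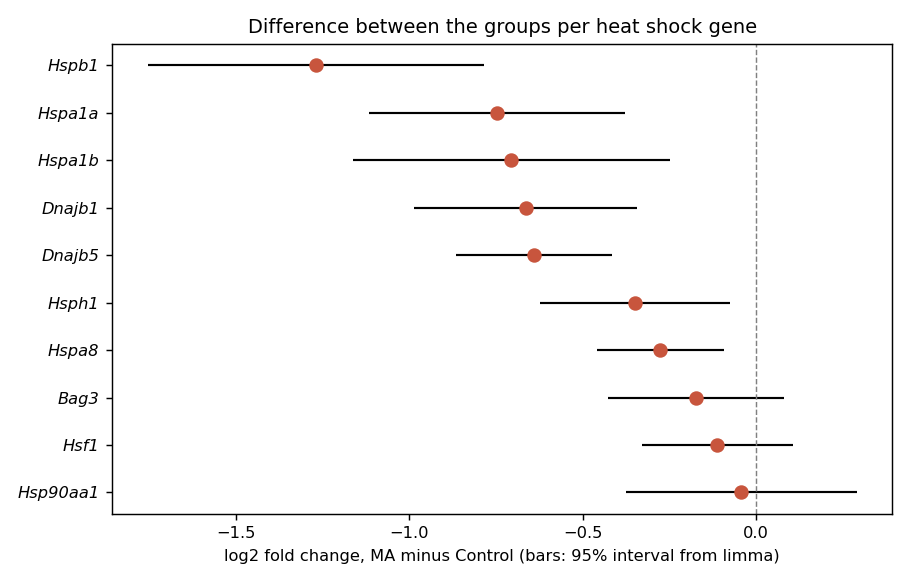
Log2 fold change of each heat shock gene (x axis, MA minus Control), with the point giving the estimate and the bar its 95% interval from limma, unadjusted for the number of genes. The interval lies below 0 for 7 genes and holds 0 for Bag3, Hsf1 and Hsp90aa1.

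**Figure D3:**
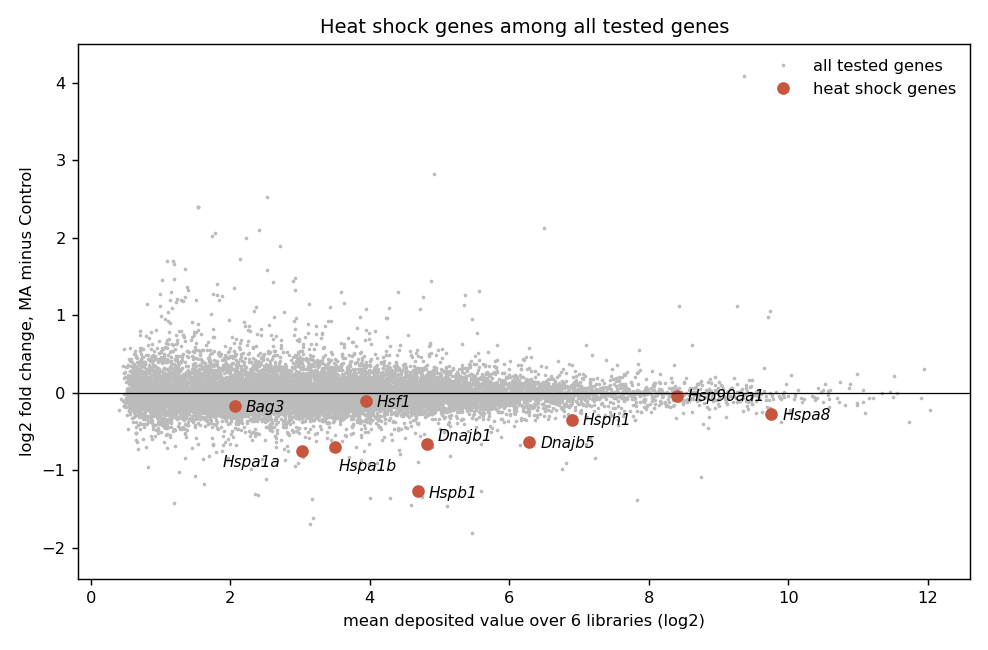
Log2 fold change (y axis, MA minus Control) against the mean deposited log2 value over 6 libraries (x axis) for all 13321 tested genes in grey and the heat shock genes in red. Hspb1, Hspa1a, Hspa1b, Dnajb1 and Dnajb5 lie at or under the lower edge of the grey cloud at their level, and Hsp90aa1, Hsf1 and Bag3 lie within it.

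By level per length in Control, the order was Hspa8, Hsp90aa1, Hsph1, Dnajb5, Hspb1, Dnajb1, Hsf1, Hspa1b, Hspa1a and Bag3, from 9.89 ± 0.097 to 2.16 ± 0.015 (SD, n = 3). The Control ranges of Hspb1 and Dnajb1, of Hsf1 and Hspa1b, and of Hspa1b and Hspa1a overlapped. Within each Control library, Hspb1 lay above Dnajb1 and Hspa1b above Hspa1a. The order of Hsf1 and Hspa1b changed between Control libraries, so these neighbours were not told apart. In MA, Hspb1 moved below Dnajb1, at 4.05 ± 0.38 against 4.49 ± 0.19 (SD, n = 3), with values that overlapped, and its range also took in that of Hsf1.

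Within the groups, many of these genes rose and fell together across libraries, though not all of them. Control replicate 2 was the lowest Control library for 9 of the 10 genes and Control replicate 1 the highest for 8. With the group means removed, 35 of the 45 pairs of genes had a positive correlation of their deviations over the 6 libraries, with a median r of 0.50 and a range from -0.85 to 0.94. The highest values were those of Hspa1a with Hspa1b (r = 0.94), Dnajb1 with Hspa8 (r = 0.92) and Hspa1a with Hspb1 (r = 0.92). Hsp90aa1 with Hsf1 had the lowest (r = -0.85). These are descriptions over 6 points that share library and normalization, and no such share was computed for other gene pairs. In the MA libraries the order depended on the gene. MA replicate 1 was the lowest for 5 genes, among them Hspa1a, Hspa1b and Hspb1, and MA replicate 3 for 4, among them Dnajb1, Hspa8 and Hsp90aa1. Averaged over the 10 standardized genes, the profile was 1.11, 0.16 and 0.82 in Control replicates 1, 2 and 3 and -0.87, -0.53 and -0.69 in MA, in units of each gene's SD over the 6 libraries. Of the 13311 other tested genes, those whose profiles followed it best over the 6 libraries were Atg5 (r = 0.992), Cblb (r = 0.992), P4ha1 (r = 0.989), Pdia3 (r = 0.989) and Fam174b (r = 0.985). P4ha1, a collagen prolyl hydroxylase, and Pdia3, a disulfide isomerase of the endoplasmic reticulum, had log2 fold changes of -0.74 and -0.35.

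To place the 10 genes in their pathway, 8 lists of related genes were read from the same fit, with 83 tested genes in all. The lists too were chosen with earlier results of these data known, so their counts are descriptions. Of these, 17 were lower and 2 higher in MA at an unadjusted p under 0.05 (limma), which 5.46% and 4.99% of all tested genes reached in those directions, and the median log2 fold change was -0.083. The endoplasmic reticulum chaperone gene Hspa5 was the only one of the 83 to pass an adjusted p under 0.05, and it is no HSF1 gene in the classical sense. Its values were 7.43, 7.01 and 7.34 in Control and 6.43, 6.36 and 6.29 in MA, a log2 fold change of -0.90 (limma adjusted p = 0.0403). That call was lost with no filter (limma adjusted p = 0.0815) and without any 1 library other than MA replicate 3, with limma adjusted p-values from 0.0707 without Control replicate 2 to 0.178 without MA replicate 2.

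Among the other HSP70 and HSP110 genes, 3 of 10 were lower at an unadjusted p under 0.05 and none higher, with a median log2 fold change of -0.15. Besides Hspa5 these were Hspa12b, an HSP70 relative known from endothelium, at -0.50 and Hyou1, an exchange factor of the endoplasmic reticulum, at -0.27, which stayed under that p in 2 of 6 fits with 1 library left out. Hspa14 stood at -0.15 with overlapping groups, and at -0.072 without MA replicate 2. HSP90 co-chaperones gave the most calls, with 7 of 18 genes lower, none higher and a median of -0.097. Fkbp4, an immunophilin of steroid receptor complexes, was lower by -0.36, with 6.40, 6.34 and 6.52 in Control and 6.04, 6.01 and 6.13 in MA. Stip1 (Hop), which links HSP70 to HSP90, was at -0.27, with 6.59, 6.49 and 6.65 in Control and 6.31, 6.33 and 6.27 in MA. Chordc1, an HSP90-binding protein gene induced by heat, was at -0.46, and Ahsa2, a relative of the HSP90 ATPase activator, at -0.30. The limma adjusted p-values of these 4 genes were between 0.211 and 0.339. The constitutive HSP90 gene Hsp90ab1 itself stood at -0.14 with overlapping groups (limma adjusted p = 0.769). It turned to 0.0044 without MA replicate 3, so neither HSP90 gene differed beyond the spread between libraries. Of the 18 genes of this list, 13 had a lower and 5 a higher mean in MA. Whether the partners differed by more than the HSP90 genes was not tested.

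The heat shock factors and their regulators were split. At an unadjusted p under 0.05, 4 of 9 tested genes were lower and 1 higher, and the median was 0.015. Ier5, an immediate early gene whose protein promotes HSF1 activity, stood at 4.48 ± 0.16 in Control and 3.86 ± 0.23 in MA (SD, n = 3 each), with no overlap. It had a log2 fold change of -0.62 (limma adjusted p = 0.211). Hsf2, the partner factor of HSF1, was at 3.34, 3.24 and 3.07 in Control and 3.02, 2.96 and 2.93 in MA, a log2 fold change of -0.25 (limma adjusted p = 0.458). Dedd2 and the deacetylase gene Sirt1, whose protein prolongs HSF1 binding to DNA, were each at -0.27. Hdac6, a cytosolic deacetylase gene, was higher at 0.39, with every MA library above every Control library, and at 0.24 without MA replicate 3. With 1 library left out in turn, Ier5 stayed under an unadjusted p of 0.05 in 6 of 6 fits, Hdac6 in 4, Dedd2 in 2 and Hsf2 and Sirt1 in 1 each. Hsf5 and Hsf2bp did not pass the filter on low values.

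The small heat shock proteins other than Hspb1 were mixed. Of 6 tested genes, none was lower and 1, Hspb6, was higher at an unadjusted p under 0.05, by 0.39 with groups that overlapped, and it stayed under that p in 2 of 6 fits with 1 library left out. Cryab, the most abundant of them, stood at 6.61, 6.56 and 6.46 in Control and 5.97, 5.88 and 6.70 in MA, where MA replicate 3 was the highest of all 6 libraries. Its log2 fold change was -0.36 over all libraries and -0.62 without that one (limma adjusted p = 0.608 and 0.0274). With sample quality weights on all 6 libraries it was -0.60 (limma adjusted p = 0.0328). Hspb8 was at 0.16, or 0.099 without MA replicate 3, and Hspb2 at -0.31, or -0.092 without Control replicate 3. The genes Cryaa, Hspb7 and Hspb9 did not pass the filter.

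Neither the HSP70 adaptors (9 genes, median -0.038) nor the cytosolic DnaJ partners (10 genes, median -0.033) held a gene at an unadjusted p under 0.05 (limma). In the first list the smallest p-values were those of Bag6 (log2 fold change 0.15), Grpel1 (-0.13), Sil1 (0.21) and Bag5 (-0.11). Sil1 stood at 0.052 without MA replicate 3, Bag5 at -0.039 without MA replicate 1 and Grpel1 at -0.084 without Control replicate 1. In the second they were those of Dnajb2 (-0.18), Dnaja4 (-0.39), Dnaja1 (-0.29) and Dnaja2 (-0.080). Dnaja4 ran from -0.60 to -0.25 with 1 library left out, and Dnaja2 stood at -0.020 without Control replicate 1. The difference of Dnaja1, also a heat-inducible gene, was carried by MA replicate 3, at 6.61 against 7.39 to 7.40 in the other MA libraries and 7.24 to 7.51 in Control, and was -0.023 without that library.

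Of 10 tested chaperonin genes, which fold actin and tubulin in the cytosol or proteins in the mitochondrial matrix, 9 had a lower mean in MA. The median was -0.14, and Hspe1 at -0.18 was the 1 with an unadjusted p under 0.05, kept in 1 of 6 fits with a library left out. Cct3, Cct6a and Cct4 stood at -0.24, -0.17 and -0.16, and Cct6b did not pass the filter. Among 11 further stress genes known to be bound by HSF1, 2 were lower and none higher at that threshold, with a median of -0.18. Per2, a clock gene, was at -0.63 and Serpinh1, the collagen chaperone Hsp47, at -0.57 (limma adjusted p = 0.0887 and 0.186). Atf3 was at -0.40 with overlapping groups, or -0.26 without MA replicate 2, and the metallothionein gene Mt1 at 0.14.

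**Figure D4:**
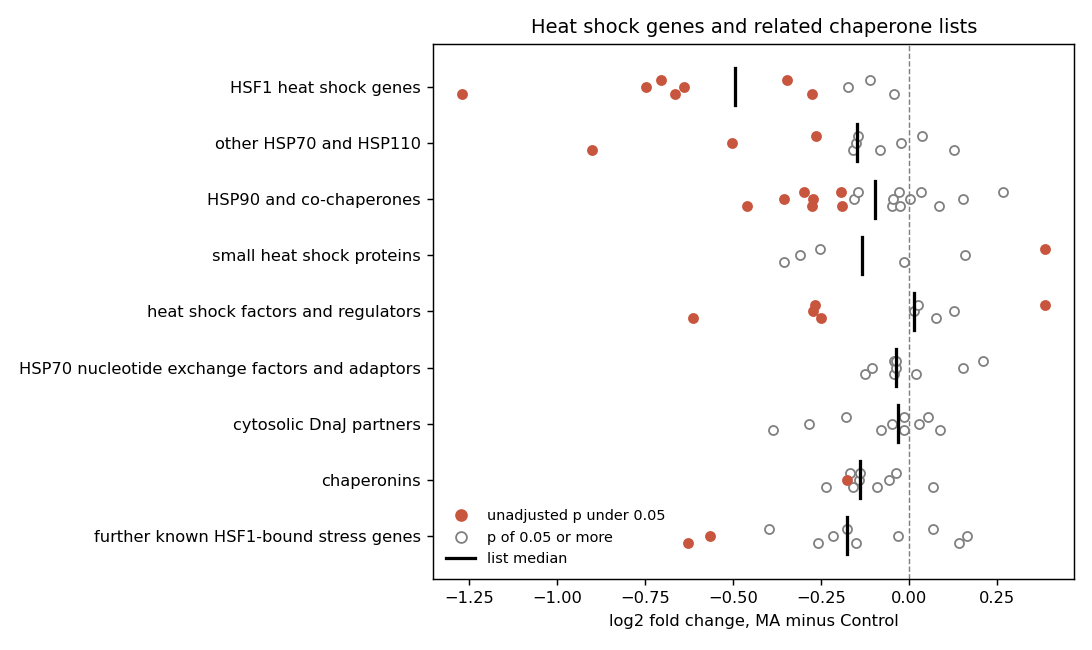
Log2 fold change (x axis, MA minus Control) of each tested gene of the heat shock genes and of 8 related lists, 1 point per gene, filled where the unadjusted limma p was under 0.05, with the list median as a black bar. The heat shock genes have the lowest median, -0.49, and the other list medians lie between -0.18 and 0.015.

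Some markers of other tissue moved with the group labels. All 7 hippocampal neuron markers were present in every library, with a summed RPKM of 1411 to 1512 in Control and 1213 to 1767 in MA. The sum is carried by the abundant Camk2a and Slc17a7, and 5 of the 7 had a lower mean in MA, as did 7025 of the 13321 tested genes. Among them Neurod6, a transcription factor of pyramidal neurons, and Wfs1, a marker of CA1, lay lower in every MA library, with log2 fold changes of -0.43 and -0.30 (limma adjusted p = 0.290 and 0.413). The 6 choroid plexus markers were higher in every MA library, with sums of 64.5 to 419 in Control and 1773 to 5074 in MA, and so were the 5 blood markers, with sums of 1599 to 2024 and 3319 to 4378. The 4 thalamus markers all had a higher mean in MA, with sums of 14.5 to 21.2 in Control. In MA replicates 1, 2 and 3 these sums were 35.2, 46.3 and 14.4, so the groups overlapped through MA replicate 3. Of 5 microglia and 5 oligodendrocyte markers, 4 each had a lower mean in MA, and none had an unadjusted p under 0.05 (limma). None of these markers was at 0 in any library. Their part in the lower heat shock values was not tested. The 6 activity genes Fos, Arc, Egr1, Junb, Nr4a1 and Npas4 were all lower in the libraries labelled MA, with sums of 241 to 338 in Control and 84.7 to 98.8 in MA. The summed RPKM of these activity genes was 338, 251 and 241 in Control replicates 1, 2 and 3. Replicate 1 was thus the highest, as for 8 of the 10 heat shock genes. The lowest differed, with replicate 3 for the activity sum and replicate 2 for 9 of the 10 heat shock genes. Single activity genes were split. Arc, Junb, Nr4a1 and Npas4 were lowest in Control replicate 3, and Fos and Egr1 in Control replicate 2. For Arc and Egr1 these 2 libraries were close, at 6.23 and 6.22 and at 5.746 and 5.755 in replicates 2 and 3. In MA the activity sum was lowest in replicate 2 (84.7), where the mean heat shock profile was the highest within MA (-0.53).

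The 7 genes with an unadjusted p under 0.05 kept a negative log2 fold change with each library left out in turn. Between 6 and 7 of them stayed under that p in limma, and Hsph1 was the gene lost. Hspb1 stayed between -1.45 and -1.07, Hspa1a between -0.90 and -0.64, Hspa1b between -0.92 and -0.57, Dnajb1 between -0.78 and -0.57 and Dnajb5 between -0.70 and -0.56. Without MA replicate 3, the library least like the others, Hspb1 and Dnajb5 passed the adjusted threshold (limma adjusted p = 0.0274 and 0.0392), a threshold then passed by 1.93% of all tested genes.

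**Figure D5:**
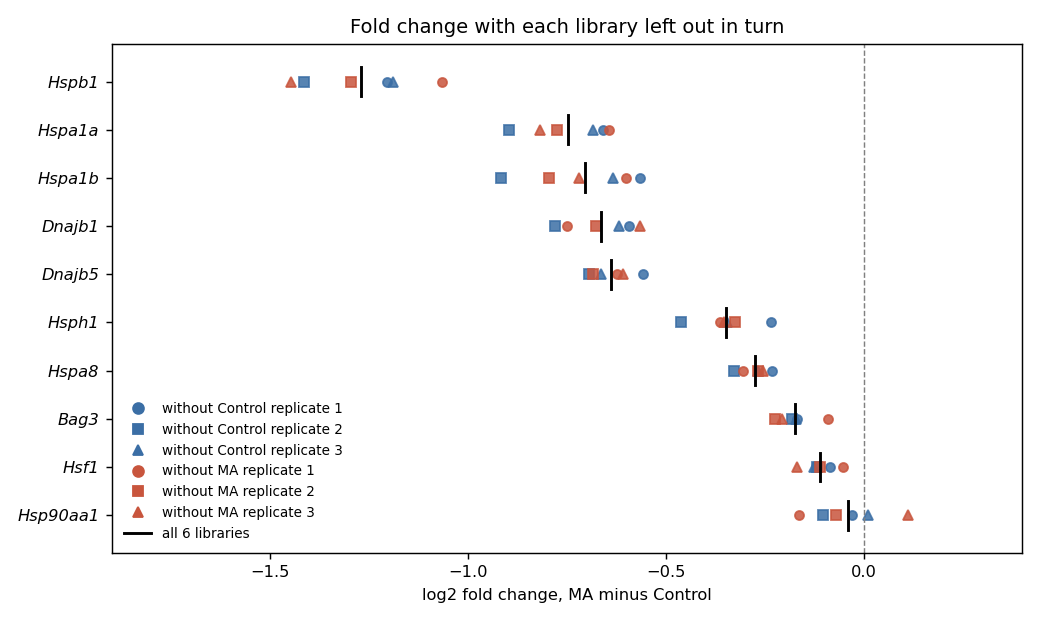
Log2 fold change of each heat shock gene (x axis, MA minus Control) when 1 library is left out, with colour for the group and shape for the replicate number of that library and a black bar for all 6 libraries. Hsp90aa1 is the only gene with points on both sides of 0, and Hspb1 has all points below -1.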

How the data were processed

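RNA-seq of the hippocampus of 3 Control and 3 MA mice was analysed, grouped by the sample titles. According to the study's methods, Hisat2 was used by the authors for alignment and featureCounts for counting, with FPKM computed from gene length; the submitters' processing notes name Bowtie 0.12.2 and builds mm8 and mm9, and the kits named by labels and methods differ. The authors deposited 1 table of 16060 rows named as RPKM, whose values are on a log scale, read as log2 with an offset of 1. The log step and the normalization between libraries are not given in the sources used here. All 6 columns matched a sample by name. The study's count model could not be fitted without counts.

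Genes with an RPKM of at least 0.5 in at least 3 libraries were tested with limma 3.58.1 in R 4.3.3 (eBayes with a trend), without covariates, with Benjamini-Hochberg adjustment over 13321 genes. P-values measure the spread between mice. The test was run on simulated data with independent normal values and 1 SD per gene in all 6 libraries. That setting does not cover libraries of unequal quality. The sample quality weights here ran from 0.194 for MA replicate 3 to 2.45 for MA replicate 2. Coordinates are those of GENCODE M21 (GRCm38), for location only. Named genes were all 10 heat shock genes, the 4 genes with the smallest p per list, Hsf2, Hsp90ab1 and the 5 genes most alike in profile; other genes named are markers, or share sequence or position with a heat shock gene. The heat shock genes and the lists were chosen with earlier results of these data known. Alternatives were pseudocounts of 0.1 and 0.01, no filter, a minimum mean of 5, median centring, quantile normalization, no trend, sample quality weights, the replicate number as a block and each library left out.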

Additional observations from a re-analysis of the deposited data

How the results depend on the processing

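The count of heat shock genes lower in MA at an unadjusted p under 0.05 was 7 under every alternative that used all libraries and 6 to 7 with 1 library left out. Median centring and quantile normalization could change little here, because the deposited values were already normalized between libraries. With each of them, 35 tested genes passed the adjusted threshold, as in the main fit. At an adjusted p under 0.05 (limma) the count of 0 became 4 with sample quality weights (Hspb1, Dnajb5, Dnajb1 and Hspa1a) and ran from 0 to 2 with 1 library left out, the 2 without MA replicate 3. Hsp90aa1 turned positive with sample quality weights (0.067), without Control replicate 3 (0.0091) and without MA replicate 3 (0.11), ranging from -0.16 to 0.11 with 1 library left out, and Hsp90ab1 turned positive with the weights (0.0088) and ranged from -0.23 to 0.0044 (without MA replicate 3) with 1 library left out. The cause was not tested. Hspa5 had an adjusted p of 0.0518 with a pseudocount of 0.01, 0.0591 without the trend and 0.115 with the block. The other 9 heat shock genes stayed lower in MA under every alternative run; Bag3 did not pass a minimum mean of 5. Over all tested genes, the 35 genes at an adjusted p under 0.05 became 3 with no filter, 20 with a minimum mean of 5, 586 with sample quality weights, 15 with the replicate block and 0 to 257 with 1 library left out. At an unadjusted p under 0.05 the 1392 genes became 844, 3504 and 842 with the minimum mean, the weights and the block, and 829 to 3103 with 1 library left out. Neither labels nor methods pair mice by number, and the deviations of libraries with the same number correlated at -0.197, -0.242 and -0.337. With the replicate block, 7 heat shock genes were still under an unadjusted p of 0.05 and 0 under the adjusted one. Of the named pathway genes Hyou1, Dedd2, Sirt1, Hsf2 and Hspe1 were then no longer under the unadjusted p, while Atf3 was. The paired exact permutation p of the 3 ratios was 0.25, 0.5 and 0.5. The 3 ratios kept their sign under every alternative run, from -0.57 to -0.34 for Hspa1a and from -0.59 to -0.30 for Hspa1b with 1 library left out, and from 0.049 to 0.15 for Hsp90aa1. Depth is not known, so its limit on the low genes, Bag3 above all, cannot be given.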
